A study of Mus musculus with 8 samples.

Results

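The genes described here encode the phagocyte NADPH oxidase and the proteins that work beside it: 5 oxidase subunits (Cybb, Cyba, Ncf1, Ncf4 and Rac2), the voltage-gated proton channel Hvcn1, and 3 genes whose products remove superoxide or peroxide or repair oxidised thiols (Sod2, Cat and Txn1). They were taken by symbol from the probe annotation of the array, which gave 13 probes for the 9 genes among 16593 genes on the array. Of the 9, 8 had a probe above background and were tested among 10277 genes, and all 8 were above background on all 8 arrays. The ninth, Cybb, was not.

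Gene expression was measured on Illumina MouseRef-8 bead arrays in Gr1+ cells, which were isolated with magnetic beads from spleens of female C57BL/6 mice aged 6 to 8 weeks. Gr1 is a surface antigen of granulocytes and of some monocytes, and more than 95% of the sorted cells carried the myeloid integrin CD11b according to the labels. There were 3 groups. The PBS group (2 arrays, numbered 1 and 3 in their titles) received PBS at both injections. The description of the array titled 3 numbers it 2, and the title was used. The LPS group (3 arrays) received lipopolysaccharide, an outer membrane component of Gram-negative bacteria, into the peritoneum and PBS into a vein 30 min later. The LPS + HY209 group (3 arrays, LT in the sample titles) received LPS and then HY209, the bile salt sodium taurodeoxycholate, into a vein. All spleens were taken at 48 h and pooled, with 10 to 15 spleens in one label and 30 to 40 in another. No group received HY209 without LPS. Whether arrays of a group came from separate pools is not clear from the labels, so the p-values reflect only how arrays of a group scatter, which may be technical.

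In resting phagocytes the oxidase is split between a membrane flavocytochrome, formed by the products of Cybb (gp91phox) and Cyba (p22phox), and a cytosolic complex that includes those of Ncf1 (p47phox) and Ncf4 (p40phox). On stimulation the cytosolic part and the GTPase Rac2 move to the membrane, and the assembled enzyme passes electrons from NADPH to oxygen, which yields superoxide. Electron export charges the membrane, and the proton channel carries the balancing protons. Superoxide dismutases turn superoxide into hydrogen peroxide, and catalase, peroxiredoxins and glutathione peroxidases remove the peroxide.

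Intensities are the deposited values on a linear scale, in which 168 marks the upper bound of background. Each array had 13082 of 25697 probes above it. Folds and log2 changes were computed on background-corrected values and can therefore be larger than the printed intensities alone would give. The sign ± after a log2 change gives the standard error of the limma fit, and ± after an intensity gives the SD. A change was called when its Benjamini-Hochberg adjusted p over all 10277 genes was below 0.05. The fit used 2 PBS, 3 LPS and 3 LPS + HY209 arrays, and this number limits the precision of every value. Between arrays of the same group the log2 values differed with an SD of 0.16 to 0.23. Between LPS and PBS arrays that SD was 0.79 to 0.81, and between LPS and LPS + HY209 arrays it was 0.25 to 0.31.

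After LPS the genes of the 4 oxidase subunits tested rose while that of the proton channel fell. Of the 8 genes tested, 6 were higher (Cyba, Ncf1, Ncf4, Rac2, Sod2 and Txn1) and 2 were lower (Hvcn1 and Cat) than in PBS cells. All 8 passed the test, where 55.6% of all genes did (25.6% higher and 30.0% lower). For all 8 the LPS and PBS arrays did not overlap, which held for 71.0% of all genes. The median size of the log2 change was 1.48 over these genes and 0.33 over all genes tested. In a sorted bulk sample, fewer cells of a type and less RNA per cell cannot be told apart.

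Markers of other cell types moved at the same time. The summed intensity of 9 neutrophil markers was 233974 to 239948 in PBS, 263232 to 272835 in LPS and 257906 to 262875 in LPS + HY209 arrays, and after LPS 4 of the 9 rose and 2 fell. That of 11 macrophage markers was 258013 to 260756 in PBS and 72148 to 72429 in LPS arrays, and all 11 fell. All 7 B cell markers fell as well, from a sum of 37818 to 39639 down to 7865 to 8683. Of 4 erythroid markers tested 3 fell, and the sum over 5 went from 14159 to 16782 down to 2262 to 2436. Of the markers tested for T and NK cells 4 of 4 fell (sum over 7, from 38228 to 39741 down to 11334 to 11906), for endothelium 5 of 6 (from 6099 to 6616 down to 1367 to 1502) and for platelets 3 of 5 (from 1677 to 1809 down to 1128 to 1180). For plasma cells 2 of 4 fell (from 9284 to 9827 down to 2916 to 3175). Among 3 monocyte markers tested, Itgam, the gene of CD11b, rose (mean 535 to 2612) and Cx3cr1 fell (1320 to 198). The monocyte sum over 4 went from 1950 to 2345 up to 2737 to 3564. Among 3 eosinophil markers tested, 1 rose and 1 fell (sum over 5, from 2815 to 2896 down to 1974 to 2157). The part of these markers in the changes of the oxidase genes was not tested.

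Among the membrane subunits, Cyba (p22phox, probe ILMN_2806700, GRCm38.p6 chr8:122424771-122432940) had an intensity of 27797 on both PBS arrays. It read 43695, 41178 and 41448 on the LPS arrays and 39936, 38280 and 39541 with LPS + HY209. The PBS arrays were the lowest of the 8, and identical because quantile normalization gives equal ranks equal values. LPS raised it 1.52-fold (0.60 ± 0.08, adjusted p = 7.4e-05), and it was 0.50 ± 0.08 above PBS with HY209 as well (adjusted p = 0.00041). The single probe of Cybb (gp91phox, the catalytic subunit, ILMN_2716935, chrX:9435252-9487766) gave 149 and 164 in PBS, 166, 160 and 166 in LPS, and 162, 169 and 164 in LPS + HY209 arrays. It exceeded background on 1 of 8 arrays and was not tested, so these arrays give no level for the gene.

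Among the cytosolic subunits, Ncf1 (p47phox, the organiser that is phosphorylated on activation, ILMN_2829457, chr5:134220053-134229628) read 1139 and 1019 in PBS arrays. It read 2932, 3403 and 3133 after LPS and 2546, 3033 and 2480 after LPS + HY209. Every array with LPS was more intense than both PBS arrays, and those of the 2 LPS groups overlapped. The rise after LPS was 3.05-fold (1.61 ± 0.12, adjusted p = 2.2e-07). A second Ncf1 probe, ILMN_1228585, was not above background on any PBS or LPS + HY209 array and read 176 to 200 in LPS arrays, a rise of at least 1.17-fold. With the mean of both probes the Ncf1 change was 1.01.

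Ncf4 (p40phox, which binds a phosphoinositide of the phagosome membrane, ILMN_2743013, chr15:78244164-78262582) read 12500 and 12102 in PBS arrays. It read 35615, 34878 and 34091 after LPS and 33335, 32510 and 31052 after LPS + HY209. The 3 groups did not overlap, with PBS lowest and LPS highest. LPS raised it 2.84-fold (1.51 ± 0.09, adjusted p = 3.1e-08). Rac2 (the haematopoietic GTPase of the oxidase, ILMN_2600678, chr15:78559169-78572783) read 10292 and 9969 in PBS and 14537, 16270 and 16509 in LPS arrays. With LPS + HY209 it read 16294, 14909 and 16949. The PBS arrays lay below all others, and the 2 LPS groups overlapped. The rise after LPS was 1.56-fold (0.64 ± 0.10, adjusted p = 0.00014).

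The oxidase subunits thus differed in size of change. Ncf1 and Ncf4 lay among the 2.68% and 3.07% of tested genes with the highest log2 changes after LPS, while 12.8% of genes rose more than Cyba and 11.8% more than Rac2. The confidence intervals at 95% were 1.36 to 1.86 for Ncf1 and 1.32 to 1.70 for Ncf4, against 0.41 to 0.79 for Cyba and 0.43 to 0.85 for Rac2.

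**Figure D1:**
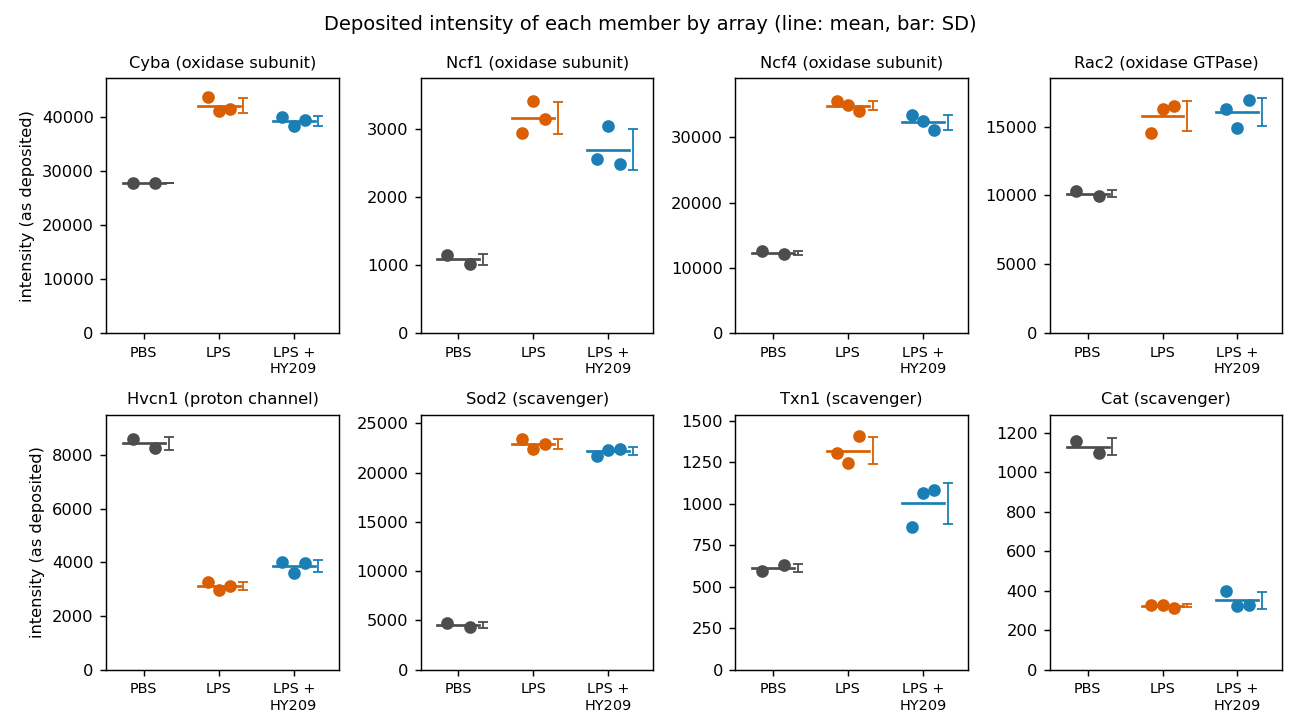
Deposited intensity (linear axes from 0) of the 8 tested genes, with 1 point per array, a line at the group mean and a bar for the SD (2 PBS, 3 LPS and 3 LPS + HY209 arrays). The 6 genes that rose after LPS lie above both PBS arrays on all 6 LPS-treated arrays, and Hvcn1 and Cat lie below them.

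Upstream sequence was set beside the subunit genes that share the direction of change. RefSeq (GRCm38.p6) gave the 250 bases before the start of transcription for 6 of the 9 genes, and those of Cyba (chr8:122432941-122433190, minus strand) and Ncf1 (chr5:134229626-134229875, minus strand) are shown because both rose. Capitals mark the GC box (GGGCGG, searched on both strands), the motif of the Sp factors.
Cyba: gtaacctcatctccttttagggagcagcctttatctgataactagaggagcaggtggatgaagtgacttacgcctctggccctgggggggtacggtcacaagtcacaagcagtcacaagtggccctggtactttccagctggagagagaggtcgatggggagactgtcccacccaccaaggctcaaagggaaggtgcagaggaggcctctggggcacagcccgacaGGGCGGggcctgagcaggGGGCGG
Ncf1: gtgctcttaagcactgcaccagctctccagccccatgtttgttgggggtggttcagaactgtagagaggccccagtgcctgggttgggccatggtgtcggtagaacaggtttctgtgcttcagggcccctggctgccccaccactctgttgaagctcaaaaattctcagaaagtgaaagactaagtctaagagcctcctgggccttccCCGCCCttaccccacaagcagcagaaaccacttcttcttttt
Cyba held 2 GC boxes and Ncf1 held 1, where 32.7% of 32841 promoter windows of the same length held at least 1. Neither held the PU box (GAGGAA), found in 23.3% of windows, or the core of the antioxidant response element (TGACNNNGC), found in 10.2%. A match describes the letters only.

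Hvcn1, the voltage-gated proton channel of phagocytes and B cells (ILMN_1243451, chr5:122206805-122242297), moved against the subunits. It read 8600 and 8268 in PBS arrays, 3277, 2967 and 3131 after LPS, and 4014, 3609 and 3990 after LPS + HY209. The 3 groups did not overlap, and PBS was the highest. LPS lowered it 2.74-fold (-1.45 ± 0.09, adjusted p = 8.8e-08). The second probe, ILMN_3124528, read 3836 and 3879 in PBS, 1642, 1592 and 1739 in LPS and 1897, 1798 and 2058 in LPS + HY209 arrays. It fell too (-1.25 ± 0.10, adjusted p = 5.8e-07 over all probes). As a share of the PBS mean, the 7 summed B cell markers stood at 20.3% to 22.4% after LPS and at 32.5% to 37.1% after LPS + HY209, so that both they and Hvcn1 were highest in PBS and lowest in LPS arrays. Of these 7 markers, 1 was above background on no LPS array. The summed plasma cell, erythroid and endothelial markers had the same order of groups as Hvcn1. The part of any of these markers in the change of Hvcn1 was not tested.

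The scavenger genes split. Sod2, the manganese superoxide dismutase of mitochondria (ILMN_2650280, chr17:13007839-13018119), read 4750 and 4332 in PBS arrays. It read 23406, 22431 and 22881 after LPS and 21707, 22333 and 22431 after LPS + HY209. The PBS arrays stood far below, and the LPS groups overlapped. Its rise of 5.11-fold (2.35 ± 0.09, adjusted p = 9.3e-10) was the largest among the 8 genes, and 0.983% of all genes rose more. Txn1, the cytosolic thioredoxin that reduces oxidised protein thiols and peroxiredoxins (ILMN_3009572, chr4:57943373-57956411), read 596 and 630 in PBS arrays. It read 1303, 1244 and 1405 after LPS and 861, 1062 and 1081 after LPS + HY209. The 3 groups did not overlap, with LPS highest and LPS + HY209 between the others. Txn1 rose 2.29-fold after LPS (1.20 ± 0.12, adjusted p = 3.4e-06).

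Of the other Txn1 probes, ILMN_1377922 read 172 and 177 in PBS and 203 to 213 in LPS arrays, a called rise (0.39 ± 0.09, adjusted p = 0.0034 over all probes). ILMN_2588054 was above background on no PBS array and on 2 of 3 LPS arrays. Its LPS mean stood 1.11-fold above the background bound, and its change did not pass limma (0.28 ± 0.12, adjusted p = 0.064 over all probes). The mean over all 3 probes, both dim ones included, put the change of Txn1 at 0.62.

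Cat, the catalase that splits hydrogen peroxide in peroxisomes (ILMN_2826110, chr2:103453904-103485153), read 1160 and 1098 in PBS arrays. It read 330, 328 and 314 after LPS and 399, 323 and 330 after LPS + HY209. Every array with LPS was below both PBS arrays, and the LPS groups overlapped. LPS lowered Cat 4.14-fold (-2.05 ± 0.12, adjusted p = 3.1e-08), and 1.37% of all genes fell more. The 11 summed macrophage markers moved alongside, at 27.8% to 27.9% of the PBS mean after LPS and 22.6% to 24.7% after LPS + HY209, and each of the 11 was above background on every array. Catalase is also abundant in red cells, and the 5 erythroid markers stood at 14.6% to 15.7% and 30.8% to 48.1%. The part of either in the change of Cat was not tested.

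The upstream sequences of the scavenger genes are shown because their members moved in opposite directions. Sod2 (chr17:13007589-13007838, plus strand) and Cat (chr2:103485154-103485403, minus strand) each held 1 NF-kB site, in capitals, where 7.25% of the windows did. Txn1 (chr4:57956412-57956661, minus strand) held none, and its capitals mark GC boxes.
Sod2: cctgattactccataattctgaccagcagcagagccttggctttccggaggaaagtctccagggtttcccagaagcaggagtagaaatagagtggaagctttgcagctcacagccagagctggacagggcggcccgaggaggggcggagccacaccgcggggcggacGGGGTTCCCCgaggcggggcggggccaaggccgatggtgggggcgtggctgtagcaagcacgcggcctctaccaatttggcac
Cat: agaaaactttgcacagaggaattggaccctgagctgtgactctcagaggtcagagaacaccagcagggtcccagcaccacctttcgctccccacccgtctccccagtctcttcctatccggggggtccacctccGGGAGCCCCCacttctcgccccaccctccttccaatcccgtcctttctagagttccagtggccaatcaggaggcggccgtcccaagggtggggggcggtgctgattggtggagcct
Txn1: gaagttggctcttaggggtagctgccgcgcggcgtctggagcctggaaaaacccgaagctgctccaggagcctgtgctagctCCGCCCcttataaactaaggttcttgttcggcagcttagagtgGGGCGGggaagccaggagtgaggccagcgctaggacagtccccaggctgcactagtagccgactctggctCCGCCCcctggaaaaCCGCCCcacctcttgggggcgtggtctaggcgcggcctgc
The NF-kB match began 83 bases before the start in Sod2, which rose, and 116 bases before it in Cat, which fell. GC boxes numbered 4 in Sod2, 4 in Txn1 and 1 in Cat, and in Sod2 and Cat they are in lower case. CCAAT boxes (CCAAT, in 33.9% of windows) numbered 4 in Cat and 1 in Sod2. The PU box (in 23.3% of windows) occurred once in Sod2, 203 bases before the start, and once in Cat, 235 bases before it. Txn1 held none. None of the 3 windows held the antioxidant response element core.

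For each gene the 2 others with the most similar profile over the 8 arrays were looked up, by the root mean square distance of mean-centred log2 values among all tested genes. Cyba lay nearest to the integrin gene Itgav (0.03) and the glutaredoxin gene Glrx (0.03). Ncf1 lay nearest to the Toll-like receptor gene Tlr6 (0.07) and to Ube2l6 (0.07), which encodes an enzyme of ISG15 conjugation. Ncf4 lay nearest to the sulfiredoxin gene Srxn1 (0.05) and the RNA sensor gene Dhx58 (0.05). For Rac2 they were Get3 (0.03) and Arpc4 (0.04), a subunit of the actin-nucleating Arp2/3 complex. Hvcn1 was nearest to Ehd4 (0.04), of endocytic recycling, and Ebpl (0.05). Sod2 was nearest to the protease gene Asprv1 (0.06) and the sialic acid receptor gene Cd33 (0.08), and Cat to Pxdc1 (0.09) and the carbonyl reductase gene Cbr2 (0.09). Txn1 was nearest to Dnajc17 (0.06) and Ush1c (0.07).

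Other genes of superoxide and peroxide handling were read from 7 lists, with 69 tested genes of 96 listed. After LPS, 17 were higher and 20 lower, which is 53.6% against the 55.6% of all genes. Their median log2 change was 0.01, against 0.00 for all genes.

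Most genes of oxidase assembly and activation were not called after LPS. Of 14 tested, 2 were higher, 2 lower and 10 not called (median 0.11), where 55.6% of all genes were called. Vav3, an exchange factor for Rac GTPases, rose from 2231 and 2400 to 4483, 5206 and 4897 (1.09 ± 0.15, adjusted p = 6.7e-05, and 0.69 with the mean of its probes). Cdc42, a small GTPase, rose by 0.34 ± 0.11 (adjusted p = 0.016), a call that was lost without PBS replicate 1 (0.27, adjusted p = 0.14), which left 2 of the list called. Cybc1, the chaperone of the flavocytochrome, fell from 4501 and 4538 to 3219, 3666 and 3391 (-0.41 ± 0.10, adjusted p = 0.0035). Prkca, a protein kinase C, was above background on both PBS arrays and on no LPS array, with an adjusted p of 0.05 that was lost in 8 of the 16 alternatives that tested it. Of the other NADPH oxidase genes only Noxo1 was tested, and it did not pass (0.00).

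Of the other enzymes that remove superoxide and peroxide, 7 of 13 were lower after LPS, 1 higher and 5 not called (median -0.26). Over all genes, 30.0% were lower and 25.6% higher. Prdx2, a peroxiredoxin abundant in red cells, fell 3.03-fold from 8278 and 8016 to 2778, 2904 and 2542 (-1.60 ± 0.12, adjusted p = 3.2e-07). With the mean of its probes the change was -0.73 and still called. Sod1, the cytosolic copper and zinc dismutase, fell 2.08-fold from 12859 and 13377 to 6313, 5973 and 6797 (-1.05 ± 0.11, adjusted p = 4.8e-06). Its copper chaperone Ccs (-0.52 ± 0.12) and the peroxiredoxins Prdx4 (-0.79 ± 0.09), Prdx1 (-0.74 ± 0.09) and Prdx3 (-0.61 ± 0.12) fell as well. Gpx4, the phospholipid hydroperoxide peroxidase, rose from 1414 and 1378 to 2201, 2174 and 2146 (0.67 ± 0.11, adjusted p = 0.00025, and 0.38 with the mean of its probes). Gpx7 fell by 0.26, a call that 6 of 17 alternatives lost. The direction of Sod1 was thus opposite to that of Sod2.

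In the thioredoxin and glutathione cycle, 6 of 18 genes were higher, 5 lower and 7 not called (median -0.01). Over all genes, 25.6% were higher and 30.0% lower. Slc7a11, the cystine transporter that feeds glutathione synthesis, rose from 624 and 661 to 2320, 2513 and 2389 (2.03 ± 0.15, adjusted p = 3.6e-07). Srxn1, which repairs overoxidised peroxiredoxins, rose from 401 and 378 to 1012, 1006 and 974 (1.53 ± 0.09, adjusted p = 3.2e-08). Txnrd2, the mitochondrial thioredoxin reductase, fell from 820 and 753 to 347, 359 and 365 (-1.31 ± 0.09, adjusted p = 2.3e-07). The glutathione transferase gene Gstp1 (-0.84 ± 0.13) and Glrx5 (-0.82 ± 0.10), of mitochondrial iron-sulfur cluster assembly, also fell, as did Gsto1 (-0.56 ± 0.10) and Gstm1 (-0.36 ± 0.12). The call of Gstm1 was lost in 4 of 17 alternatives. The remaining 4 that rose (Mgst1, Msrb1, Glrx and Gss) did so by 0.26 to 0.75, and the call of Gss was lost in 6 of 17 alternatives.

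Genes of the NRF2 pathway, the transcriptional response to electrophiles and oxidants, were higher in 5 of 9 cases and lower in 1. Over all genes, 25.6% were higher and 30.0% lower. The list median of 0.78 was the value of Hmox1, which was not called and varied widely within groups (0.78 ± 0.65, adjusted p = 0.33). Nqo1, a quinone reductase and common readout of NRF2, rose 4.95-fold from 181 and 182 to 575, 753 and 578 (2.31 ± 0.15, adjusted p = 7.3e-08). Mafg, a partner of NRF2 in DNA binding, rose by 1.65 ± 0.12 (adjusted p = 1.8e-07), and Bach1, a repressor at the same elements, by 0.90 ± 0.14 (adjusted p = 0.00018). Sqstm1, the autophagy receptor p62, rose by 0.80 ± 0.15, and Keap1, which marks NRF2 for degradation, by 0.26 ± 0.09, a call lost in 7 of 17 alternatives. Blvrb, a biliverdin reductase and a red cell enzyme, fell 3.96-fold from 16669 and 15897 to 4124, 3971 and 4405 (-1.99 ± 0.11, adjusted p = 2.5e-08). The gene of NRF2 itself, Nfe2l2, was not called after LPS (0.34 ± 0.21, adjusted p = 0.19).

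In NADPH supply, 5 of 10 genes were lower and 1 higher (median -0.37), where 30.0% of all genes were lower and 25.6% higher. The malic enzyme gene Me2 (-1.02 ± 0.09) and the isocitrate dehydrogenase genes Idh1 (-0.97 ± 0.17) and Idh2 (-0.58 ± 0.11) fell, as did Rpia (-0.63 ± 0.12) and Pgls (-0.56 ± 0.09) of the pentose phosphate pathway. Nadk, the kinase that makes NADP from NAD, rose from 20621 and 19211 to 37232 on each of the 3 LPS arrays (0.91 ± 0.09, adjusted p = 2.6e-06). In the last list, of peroxidases and nitric oxide synthases, 2 of 4 were called higher, against 25.6% of all genes. They were Mpo, the myeloperoxidase of azurophil granules (0.58 ± 0.09, adjusted p = 0.0002, and 0.35 with the mean of its probes), and Nos2, the inducible nitric oxide synthase (0.72 ± 0.19, adjusted p = 0.0066). Nos2 read 176 and 137 in PBS, above background on 1 of the 2 arrays, and 192 to 236 in LPS arrays. Its change was 0.44 without background correction and 1.08 with an offset of 16, and its call was lost without PBS replicate 3 (0.40, adjusted p = 0.13), which left 1 of the list called.

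**Figure D2:**
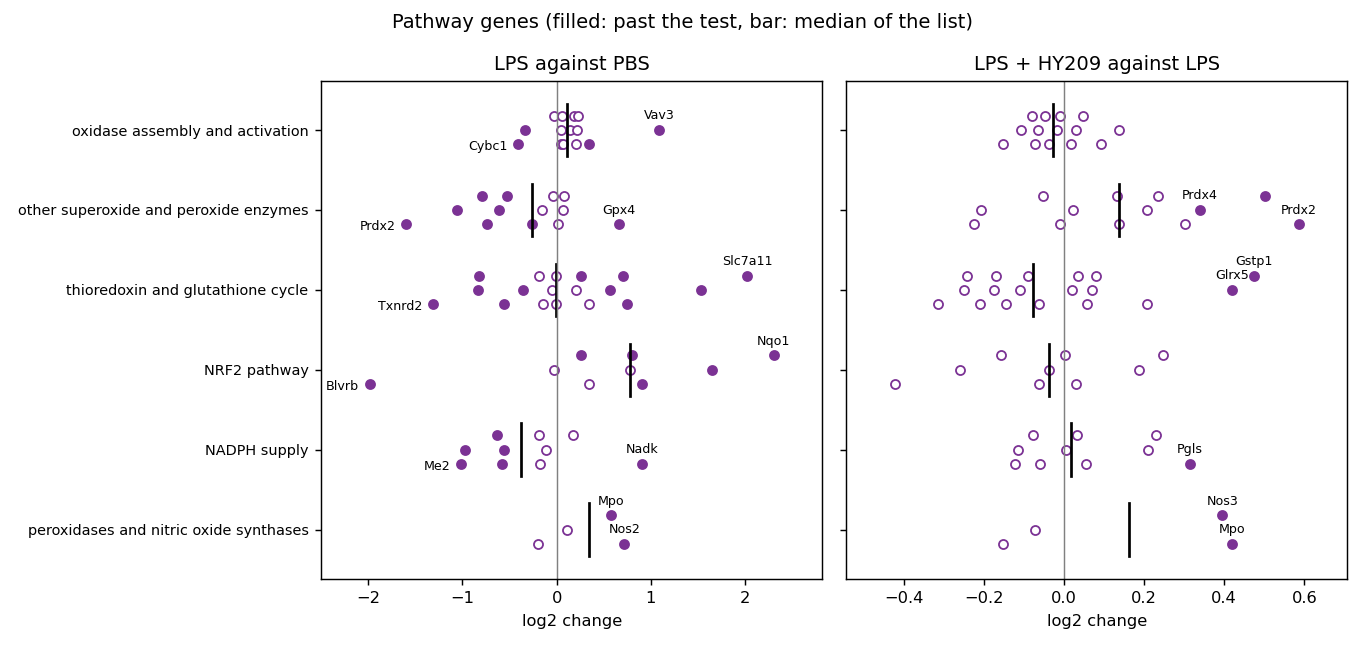
Log2 changes of the tested genes of 6 pathway lists for LPS against PBS and for LPS + HY209 against LPS, with filled points for genes past the test, a black bar at the median of each list, the most negative and most positive called genes named, and different horizontal scales in the 2 panels. Called genes lie on both sides of 0 after LPS, and with HY209 the 8 called genes lie to the right of 0.

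The second comparison, LPS + HY209 against LPS, sets the mice given HY209 after LPS against those given LPS alone. Of the 8 genes, Hvcn1 was higher and Txn1 lower with HY209, and the other 6 were not called. That is 2 of 8, where 9.53% of all genes passed (6.10% higher and 3.43% lower). The 2 groups did not overlap for 4 of the 8 (Cyba, Ncf4, Hvcn1 and Txn1), where 29.1% of all genes did not. The median size of the log2 change was 0.12 over these genes and 0.13 over all genes. Since this comparison and the former share the LPS arrays, the changes in the 2 are not independent and are given side by side.

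No oxidase subunit was called by limma with HY209, and 1 of the 4 tested (Ncf1) had an unadjusted p below 0.05. Over all genes, 2644 of 10277 had such a p. Cyba changed by -0.10 ± 0.08 (adjusted p = 0.44), with an interval of -0.27 to 0.07, and Ncf4 by -0.11 ± 0.08 (adjusted p = 0.40), from -0.28 to 0.06. All 3 arrays with HY209 lay below all 3 LPS arrays for both. Ncf1 changed by -0.24 ± 0.10 (adjusted p = 0.17), from -0.47 to -0.02, and its arrays overlapped. Its dim second probe was at least 1.17-fold lower with HY209 (adjusted p = 0.028 over all probes). Rac2 changed by 0.03 ± 0.09 (adjusted p = 0.89), from -0.17 to 0.22. Its direction turned without LPS replicate 1 (-0.03) or LPS + HY209 replicate 3 (-0.01).

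Hvcn1 rose 1.24-fold with HY209 (0.31 ± 0.08, adjusted p = 0.038), and all 3 arrays lay above the LPS arrays. Its second probe was also higher on all 3 arrays, and its change did not pass (0.22 ± 0.09, adjusted p = 0.16). The call of Hvcn1 was lost in 11 of 17 alternatives, with adjusted p between 0.011 and 0.12. Among them was leaving out any 1 array other than LPS + HY209 replicate 2, at changes of 0.28 to 0.35. Of the 7 B cell markers, 5 rose with HY209 and the summed intensity went from 7865 to 8683 up to 12570 to 14357, and their part in the rise of Hvcn1 was not tested.

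Txn1 fell 1.34-fold (-0.43 ± 0.11, adjusted p = 0.027), and all 3 arrays lay below the LPS arrays. Its call was lost without LPS + HY209 replicate 1 (-0.31, adjusted p = 0.092), LPS replicate 1 (-0.43, adjusted p = 0.071) or LPS replicate 3 (-0.38, adjusted p = 0.096), and in 5 of 17 alternatives in all. Array 1 of the HY209 group had the lowest Txn1 intensity of its group (861) and the highest sum of erythroid markers (7435, against 4768 and 6562). The same array was highest of its group for the plasma cell, T and NK cell, endothelial, platelet, macrophage and eosinophil sums. For the B cell, monocyte and neutrophil sums it was the lowest. The part of any of these markers in the change of Txn1 was not tested. The probes ILMN_1377922 (-0.18 ± 0.08, adjusted p = 0.20) and ILMN_2588054 (-0.13 ± 0.11, adjusted p = 0.50) did not pass. Sod2 changed by -0.05 ± 0.08 (adjusted p = 0.75), from -0.22 to 0.12, and Cat by 0.13 ± 0.10 (adjusted p = 0.46), from -0.10 to 0.36. Array 1 of the HY209 group, with 399, was the highest of its group for Cat.

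**Figure D3:**
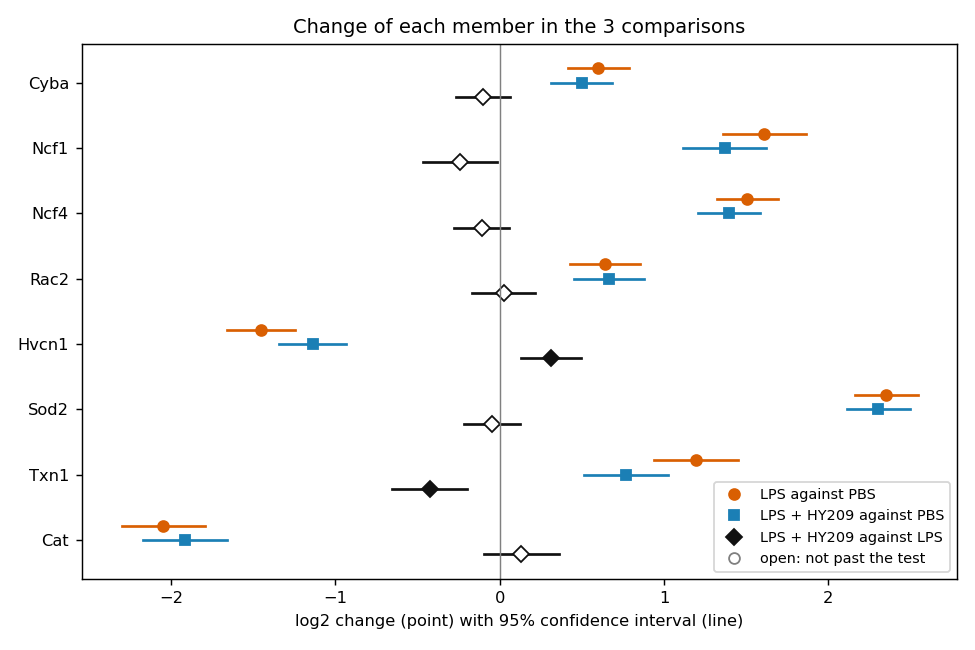
Log2 change of each of the 8 genes in the 3 comparisons, with 95% confidence intervals from the limma fit and open symbols for changes that did not pass the test. Both comparisons with PBS give 6 genes to the right and 2 to the left of 0, and the comparison of LPS + HY209 with LPS lies between -0.43 and 0.31.

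In the pathway lists, 8 of 69 genes were called, all higher with HY209 (11.6%, against 9.53% of all genes). Prdx2 rose from 2778, 2904 and 2542 to 4740, 3597 and 3971 (0.59 ± 0.11, adjusted p = 0.0076), and was called in all 17 alternatives, at 0.33 with the mean of its probes. Of the 4 erythroid markers tested 3 rose too, and the sum over 5 went from 2262 to 2436 up to 4768 to 7435, with replicate 1 highest and replicate 2 lowest among the HY209 arrays as for Prdx2. Their part in the rise of Prdx2 was not tested. Gpx3, the extracellular glutathione peroxidase (0.50 ± 0.12, adjusted p = 0.021), Gstp1 (0.47 ± 0.12, adjusted p = 0.027), Glrx5 (0.42 ± 0.09, adjusted p = 0.014), Prdx4 (0.34 ± 0.08, adjusted p = 0.029) and Pgls (0.32 ± 0.08, adjusted p = 0.037) were higher. So was Mpo, from 400, 367 and 372 to 492, 459 and 505 (0.42 ± 0.08, adjusted p = 0.01), a call lost with the mean of its probes (0.17, adjusted p = 0.17). Nos3, the endothelial nitric oxide synthase, was above background on 1 of 3 LPS arrays and on all 3 with HY209 (0.40 ± 0.10, adjusted p = 0.026). Of 6 endothelial markers 5 rose with HY209, their sum from 1367 to 1502 up to 2308 to 3909, and all 5 platelet markers rose, their sum from 1128 to 1180 up to 1687 to 1810. Their part in the changes with HY209 was not tested.

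Of these 8 calls, 6 were lost when 1 array or another was left out. Pgls was lost with each of the 8 arrays left out and in 11 of 17 alternatives in all, Prdx4 in 9, Gstp1 in 5, Gpx3 in 4, Nos3 in 4 and Glrx5 in 1. Without LPS + HY209 replicate 1, Glrx5 (adjusted p = 0.06), Gpx3 (adjusted p = 0.094), Gstp1 (adjusted p = 0.11), Nos3 (adjusted p = 0.10) and Prdx4 (adjusted p = 0.10) did not pass. Over all genes, 979 passed, and 390 did without that array, 507 without LPS replicate 1 and 524 without LPS replicate 3. None of the 14 genes of oxidase assembly (changes of -0.15 to 0.14) and none of the 9 NRF2 genes (-0.42 to 0.25) was called in limma with HY209, in any of the 17 alternatives. At an unadjusted p below 0.05 they numbered 0 and 1, where 2644 of all 10277 genes had such a p.

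**Figure D4:**
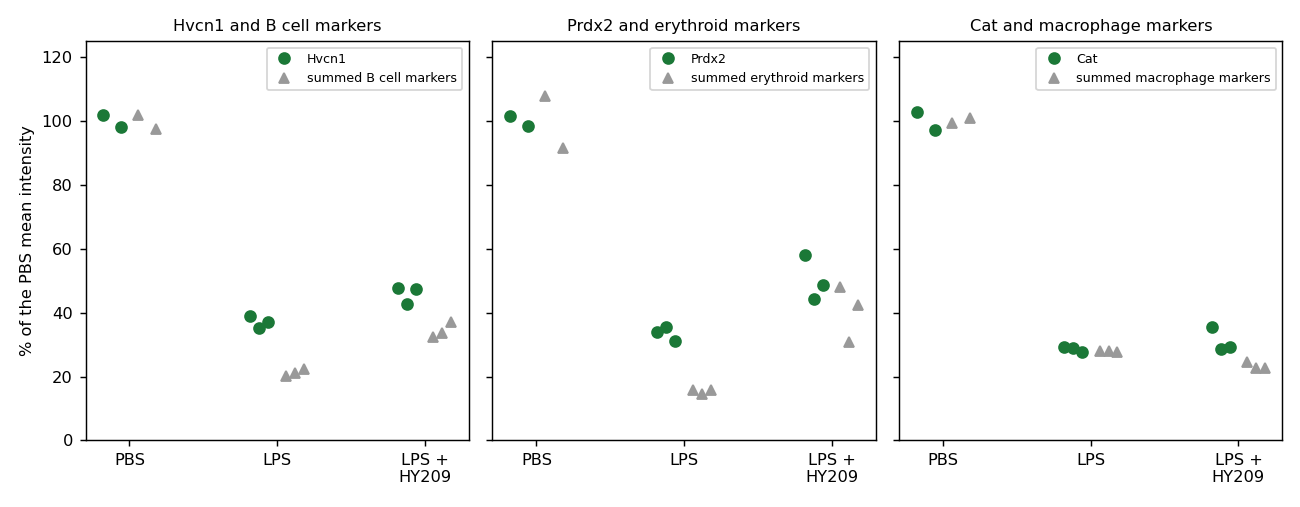
Intensity as a percentage of the PBS mean, by array, for Hvcn1 with the summed B cell markers, Prdx2 with the summed erythroid markers and Cat with the summed macrophage markers (circles for the gene, triangles for the markers). Hvcn1, Prdx2 and their paired markers are lowest in LPS arrays and higher with HY209, while the macrophage markers are lowest with HY209 and the Cat arrays of both LPS groups overlap.

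The third comparison set LPS + HY209 against PBS. All 8 genes were called, 6 higher and 2 lower, where 47.4% of all genes were (21.5% higher and 25.9% lower). Their arrays did not overlap with PBS, as for 64.5% of all genes. The genes higher and lower were those of LPS against PBS, and the PBS arrays are shared by both comparisons. Ncf4 stood 1.40 ± 0.09 above PBS (adjusted p = 8.1e-08), Ncf1 1.37 ± 0.12 (adjusted p = 1.2e-06) and Rac2 0.67 ± 0.10 (adjusted p = 0.00013). The scavengers Sod2 (2.31 ± 0.09, adjusted p = 1.3e-09) and Txn1 (0.77 ± 0.12, adjusted p = 0.00018) were also above PBS. Hvcn1 (-1.14 ± 0.09, adjusted p = 9.5e-07) and Cat (-1.92 ± 0.12, adjusted p = 7.4e-08) stayed below it. For Cyba, Ncf4 and Txn1 the group order was PBS, LPS + HY209, LPS, and for Hvcn1 it was the reverse. The call between LPS + HY209 and LPS in those orders was made for Txn1 and Hvcn1 and missed for Cyba and Ncf4.

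In the pathway lists, 18 genes were above and 20 below PBS in this comparison, which is 55.1% against 47.4% of all genes. Sod1 (-0.85 ± 0.11, adjusted p = 4.2e-05) and Prdx2 (-1.01 ± 0.12, adjusted p = 2.2e-05, and -0.40 with the mean of its probes) were below PBS, and Slc7a11 (1.71 ± 0.15, adjusted p = 2e-06), Srxn1 (1.36 ± 0.09, adjusted p = 1.2e-07) and Mafg (1.39 ± 0.12, adjusted p = 1e-06) were above it. In NADPH supply, 7 of 10 were lower, with Me2 at -0.81 ± 0.09 and Idh1 at -0.94 ± 0.17, and without a PBS array 3 or 4 of 10 were (PBS replicate 1 or 3 left out). Nfe2l2, which encodes NRF2 itself, was called here (0.59 ± 0.21, adjusted p = 0.038), a call lost without PBS replicate 1 (0.46, adjusted p = 0.24), PBS replicate 3 (0.73, adjusted p = 0.065), LPS + HY209 replicate 1 (0.57, adjusted p = 0.089) or LPS + HY209 replicate 2 (0.40, adjusted p = 0.12).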

How the data were processed

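Microarray intensity on a linear scale was deposited for 8 arrays, quantile normalized by the authors with GenomeStudio 2011.1 and R 2.15.0 named in the submitters' processing notes. It was not background-subtracted, as the lowest value of 108.9 on every array shows, and column quantiles differed by at most 0.0616%. A second table (16 columns) was not used, since nothing in the labels ties its columns to samples. RNA input was 550 ng per array, per the labels.

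Background was corrected with normexp (offset 50), then quantile normalization and log2 followed in limma 3.58.1 (R 4.3.3). The upper 5% bound of background (168, from an intensity mode of 148 and a log2 spread of 0.11) had to be exceeded on at least 2 arrays (14828 of 25697 probes). It replaced a filter on detection p-values, which the table used does not hold. Of the probes, 23978 carried 1 gene symbol and 1719 none, and 23962 matched RefSeq by Entrez identifier. The probe with the highest mean stood for a gene. A limma model (lmFit and eBayes, two-sided, 5 residual and 6.60 prior degrees of freedom) estimated 3 group means from the 8 arrays, with Benjamini-Hochberg adjustment over 10277 genes. Other probes of a gene were read from a fit over all kept probes. A bound for a group below background set the mean of the other group against the threshold on the corrected scale (log2 of 6.65). It makes no allowance for scatter between arrays. The code was tested on simulated data. Promoter sequences are RefSeq's.

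The genes and lists, and the rule for naming genes, were chosen with earlier results of these data known. The rule takes the 9 genes, their 2 nearest genes, and from each pathway list up to 4 called members or all where 5 or fewer were called in a direction. Samples were grouped and numbered by title, although the description of PBS array 3 numbers it 2. The pairs of arrays with the same number and the fit with a replicate block rest on the titles. The replicate numbers were not used as a block in the main fit, because the labels do not say that they mark a shared batch. In 7 pairs of arrays with the same number, deviations from the group means had correlations of -0.19 to 0.29, with 2 over 0.1. Between LPS and LPS + HY209 arrays, pairs with the same number gave 0.05, 0.29 and 0.27, and pairs with different numbers gave -0.35 to 0.12. A shared batch is therefore not excluded, and a fit with the block was run as an alternative. Alternatives changed the background correction, scaling, filter, probe rule, arrays in the fit, replicate block, eBayes settings and offset, and left out each array.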

Additional observations from a re-analysis of the deposited data

How the results depend on the processing

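Across 17 alternatives (8 that each left out 1 array and 9 others), all 136 values of the 8 genes for LPS against PBS and all 136 for LPS + HY209 against PBS kept direction and call. The mean of all probes lowered Ncf1 and Txn1 after LPS to 1.01 and 0.62, and against PBS with HY209 to 0.68 and 0.38, through their dim probes. For LPS + HY209 against LPS, 118 of 136 values kept both, 16 lost the call and 2 changed direction, both of Rac2 (-0.0149 and -0.0323, range -0.0323 to 0.078 with 1 array left out). Hvcn1 lost its call with no filter (0.31, adjusted p = 0.074), with only the groups compared (0.31, adjusted p = 0.063), with the mean of probes (0.27, adjusted p = 0.059) and with an offset of 16 (0.32, adjusted p = 0.059). Txn1 lost it with the mean of probes (-0.25, adjusted p = 0.062) and an offset of 16 (-0.44, adjusted p = 0.052). The number of the 8 genes past the test was 1 with no filter, 1 with only the groups compared, 0 with the mean of probes and 0 with an offset of 16. With no filter more genes entered the adjustment, and for the others the cause was not tested. With 1 array left out, that number ran from 0 to 2, Hvcn1 from 0.28 to 0.37, Txn1 from -0.49 to -0.31 and the genes past the test from 390 to 1124. A left-out PBS array leaves 1, assumed to vary like the other groups.

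With a replicate block, 1206 genes passed for LPS + HY209 against LPS (979 without it), 5810 for LPS against PBS and 5020 for LPS + HY209 against PBS, and no call of the 8 genes changed. Txn1 kept -0.43 (adjusted p = 0.019) and Hvcn1 0.31 (adjusted p = 0.026) under the block. Scaling to the 75th percentile changed nothing, since the deposited arrays already share their quantiles. For the pathway genes, an alternative set chosen after seeing the data, 7 of 37 calls were lost in at least 1 alternative for LPS against PBS, 7 of 8 for LPS + HY209 against LPS and 14 of 38 for LPS + HY209 against PBS, and none changed direction. Normalization of the unused second table was not run.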

Other observations

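Hmox1, which encodes the haem-degrading enzyme heme oxygenase 1 and belongs to the NRF2 list, varied more within groups than between them. It is named here after its values were seen. Its intensity was 1067 and 2941 in PBS arrays, 4489, 1215 and 4913 in LPS arrays, and 1428, 1665 and 4771 in LPS + HY209 arrays. All 3 groups overlapped, and the change after LPS was 0.78 ± 0.65 (limma, adjusted p = 0.33). It ran from 0.02 to 1.54 with 1 array left out, and it passed the test with a replicate block (1.23, adjusted p = 0.017) and without LPS replicate 2 (1.45, adjusted p = 0.039).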
